A study of Mus musculus with 3 samples.

Results

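The 7 genes Fabp1 to Fabp7, which encode the fatty acid binding proteins of the liver, intestine, heart, adipocyte, epidermis, ileum and brain in that order, were followed across 3 cell populations of the mouse peritoneal cavity. They were taken by gene symbol from the platform's gene table, which named 7 of the 22180 genes measured as members, through 11 probe sets. A probe set is a group of array probes for 1 transcript region. The populations came from naive, untreated female BALB/c mice 10 to 11 weeks old, and were innate lymphoid cells of type 2, mature mast cells and mast cell progenitors. Peritoneal cells of 5 mice were pooled and sorted by flow cytometry in successive rounds. RNA of 100 cells of each population was amplified for 1 array. Both mast cell populations lacked or had little of the lineage markers, lacked CD25 and CD127, carried FcεRI, T1/ST2 and much c-kit, and were intermediate for the Fcγ receptors CD16 and CD32. Among them, progenitors were the cells of high integrin β7 and little side scatter, and mature cells those of much side scatter with integrin β7 absent to intermediate. The innate lymphoid cells carried T1/ST2, CD25 and CD127, had little or no c-kit, and lacked FcεRI, the lineage markers and these Fcγ receptors.

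Fatty acid binding proteins are small barrel-shaped proteins of the cytosol that hold a fatty acid or a related lipid in an inner cavity. They carry these poorly soluble molecules to membranes, to the enzymes that burn or store them, and to nuclear receptors such as the PPAR family. Fabp6 is known mainly as a carrier of bile acids. Fabp4 and Fabp5 are also known from macrophages, and type 2 innate lymphoid cells are known to take up fatty acids as fuel.

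Each population has 1 array, so errors and tests are not possible and the levels below stand alone. All values are levels on the log2 scale, or differences of such levels, where a difference of 1 is 2-fold and a difference of 2 is 4-fold. A gene was counted as different when its levels differed by at least 4-fold and the brighter of the 2 arrays was above its own median, which was 6.32 for progenitors, 6.30 for mature cells and 6.30 for innate lymphoid cells. For a dimmer level under the median of its array, the fold was taken over that median and is written as a lower bound. In these pooled samples, fewer cells with a transcript and less of it per cell cannot be told apart. The family was chosen by the measured log2 levels of these arrays, those of Fabp5 and Fabp6 being known from earlier work on them, so the members' differences are descriptions.

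By the brightest probe set of each gene, the family split into members above the array median in 1 population, a member bright in all, and members below it throughout. Fabp5 stood at 10.47 in innate lymphoid cells and below the array median in both mast cell populations, while 2 of its 4 probe sets were flat. Fabp6 stood at 9.75 in progenitors and below the array median in the other populations. Fabp3 lay above 8 in every population by its brighter probe set only. Of the 7 members, 4 (Fabp1, Fabp2, Fabp4 and Fabp7) were below the array median on every array, and 5 did not reach a counted difference in any pair of arrays.

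**Figure D1:**
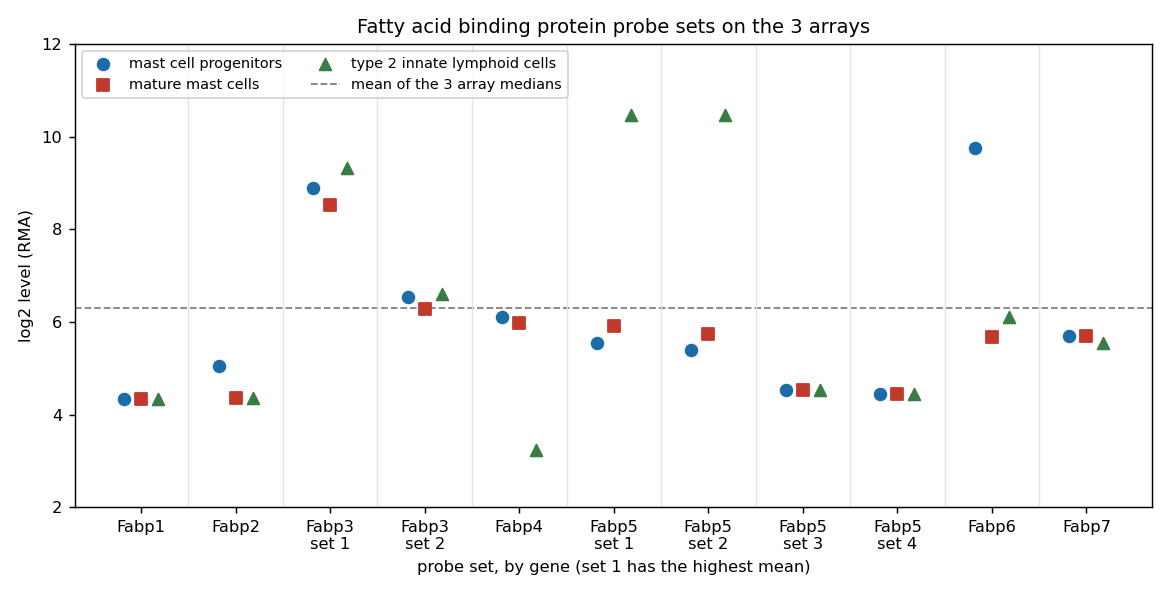
Log2 levels of the 11 probe sets of the 7 members (horizontal axis) on the 3 arrays, with a circle for progenitors, a square for mature mast cells and a triangle for innate lymphoid cells; each point is 1 array and the dashed line is the mean of the 3 array medians. Sets 1 and 2 of Fabp5 stand at 10.47 and 10.48 in innate lymphoid cells, Fabp6 at 9.75 in progenitors, and sets 3 and 4 of Fabp5 lie flat at 4.52 and 4.45.

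Fabp5, the epidermal member, is found in many cell types outside the skin. Its brightest probe set, 17548717, gave 10.47 in innate lymphoid cells, 5.91 in mature mast cells and 5.54 in progenitors. The innate lymphoid array was thus the high one, and the mast cell arrays lay close together. The difference was 4.93 from progenitors and 4.56 from mature cells, or at least 17.8-fold and at least 18.1-fold. Of all 22180 genes, 9 had a measured difference at least as large in the same direction from progenitors, Fabp5 included, and 8 from mature cells, none of them an olfactory or vomeronasal receptor gene, a class these cells are not known to use. With every level under its array median raised to that median, as in the bounds, these were 14 genes with 2 receptors of this kind and 10 genes with 1. Progenitors and mature cells differed by 0.38 for this probe set.

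The 4 probe sets of Fabp5 fell into pairs that disagreed. Probe set 17548238 gave 10.48 in innate lymphoid cells, 5.75 in mature cells and 5.40 in progenitors, within 0.16 of the brightest set on each array. Probe set 17404073 gave 4.52 on all 3 arrays, and probe set 17396056 gave 4.45 on all 3. The high innate lymphoid level of Fabp5 therefore rests on 2 of its 4 probe sets. The flat pair carry values that recur in the table: 40 other probe sets of the table hold the same value as 17404073 on every array, and 25 others the same as 17396056. Neither bright probe set shares its value with another on any array. Where several probe sets name a gene, such disagreement was common. In the comparison of progenitors with innate lymphoid cells, 77 such genes had a probe set past the 4-fold rule, and in 18 of them at least 2 probe sets passed in the same direction. In 7 of the 77 every probe set passed. Between mature mast cells and innate lymphoid cells the counts were 46, 9 and 4.

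Many other genes as bright as Fabp5 in innate lymphoid cells were lower in progenitors. Of 107 other genes whose innate lymphoid level lay within 0.5 of that of Fabp5, 53 (49.5%) were at least 4-fold higher there than in progenitors and 27 (25.2%) than in mature cells. In both respects at once it was 25 genes (23.4%). Over all genes, 82 were at least 4-fold higher in innate lymphoid cells than in both mast cell populations (0.370%), Fabp5 among them. How far the lower levels of bright genes in progenitors bear on the Fabp5 difference was not tested.

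The genes whose pattern over the 3 arrays was most like that of Fabp5 were Casp1, Rnf125 and Pomp. Likeness was the distance between the 3 levels of each gene, centred on that gene's own mean, among 10093 genes above the median of an array. Casp1, which encodes the inflammatory caspase 1, lay at a distance of 0.37 with levels of 10.24 in innate lymphoid cells, 5.38 in mature mast cells and 5.53 in progenitors. Rnf125, a ubiquitin ligase gene, lay at 0.58 with 10.81, 6.58 and 6.69 in the same order. Pomp, which encodes a chaperone of proteasome assembly, lay at 0.69 with 10.43, 5.12 and 5.65.

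Fabp6, also called gastrotropin, is the bile acid carrier of the ileal epithelium. Its only probe set, 17261963, gave 9.75 in progenitors, 6.10 in innate lymphoid cells and 5.67 in mature mast cells. Progenitors were the high population, and both other levels were below their array medians. The difference was 4.08 from mature cells and 3.65 from innate lymphoid cells, at least 11.0-fold and at least 10.9-fold. A measured difference at least as large was found for 5 genes against mature cells, Fabp6 included, 1 of them an olfactory or vomeronasal receptor gene, and for 10 against innate lymphoid cells, 2 of them such receptors. With levels under the array medians raised to them, these were 5 genes with 1 receptor and 8 genes with 1. The mature-cell value of Fabp6 is held by 100 other probe sets on that array, while its progenitor value is held by no other.

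Genes as bright as Fabp6 in progenitors were compared in the same way as for Fabp5. Of 84 other genes within 0.5 of its progenitor level, 3 (3.57%) were at least 4-fold higher than in mature cells, 12 (14.3%) than in innate lymphoid cells, and 3 (3.57%) than in both. Over all genes, 21 were at least 4-fold higher in progenitors than in both other populations (0.0947%), Fabp6 among them. Since Fabp6 was chosen with its level known, nothing is read from these shares. The nearest patterns, in which levels below the medians enter as measured, lay farther off than for Fabp5. They were Duxf3, a double homeobox gene, at a distance of 0.99 (7.41 in progenitors, 4.73 in mature and 4.50 in innate lymphoid cells), Commd6 at 1.04 (11.08, 8.28 and 8.68 in the same order), and Ptma, which encodes prothymosin α, at 1.15 (10.54, 7.69 and 8.41). A distance under 1 was found for 1 gene around Fabp6 and for 14 around Fabp5.

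Genes that work with Fabp6 in the gut had equal or nearly equal levels, those of Nr1h4 and Slc10a2 below the array medians. Exactly equal values cannot be read here as a measured absence of change. Nr1h4, which encodes the bile acid receptor FXR, a nuclear receptor known to switch on Fabp6, was at 5.91 in both progenitors and innate lymphoid cells and 5.86 in mature cells. Slc10a2, the ileal bile acid importer, was at 4.67 on all 3 arrays. Gpbar1, the surface receptor for bile acids, was at 6.75 in progenitors and 6.82 on the other arrays. None of the 12 enterocyte and hepatocyte markers reached 2-fold in any pair of arrays or a level of 8. Among 12 genes, a count of none cannot be told from the 2-fold shares of all genes, 2.44%, 2.65% and 2.6%. Vil1, the villin gene of the brush border, was at 6.30 on every array.

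The promoters of Fabp6 and Fabp3 are shown because these are the members with a bright level whose sequence was matched in the RefSeq table of GRCm38.p6, which held windows for 5 of the 7 members. Each line gives the 250 bases before the annotated start, 5′ to 3′ on the gene's strand. The Fabp6 window is chr11:43601563-43601812 on the minus strand and the Fabp3 window chr4:130308488-130308737 on the plus strand. Capitals mark matches on either strand to 3 motifs. The first is an inverted repeat of the nuclear receptor half-site, AGGTNA followed by 1 base and then its reverse complement TNACCT. The second is a direct repeat, AGGNCA followed by 1 base and AGGNCA again. The third is the TATA core TATAA, whose matches on opposite strands can overlap.
Fabp6: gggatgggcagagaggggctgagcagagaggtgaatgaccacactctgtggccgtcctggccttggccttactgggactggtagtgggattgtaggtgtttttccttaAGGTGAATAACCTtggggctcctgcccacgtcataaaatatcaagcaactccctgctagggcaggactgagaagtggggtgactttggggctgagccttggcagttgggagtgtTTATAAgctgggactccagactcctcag
Fabp3: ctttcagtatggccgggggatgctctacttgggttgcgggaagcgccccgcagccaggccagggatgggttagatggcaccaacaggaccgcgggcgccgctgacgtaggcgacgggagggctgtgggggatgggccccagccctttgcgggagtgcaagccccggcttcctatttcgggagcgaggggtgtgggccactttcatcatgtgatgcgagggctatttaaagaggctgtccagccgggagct

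The Fabp6 window holds the inverted repeat as AGGTGAATAACCT, from 142 to 130 bases before the start, and overlapping TATA matches from 28 to 23 bases before it. The inverted repeat was found in 6 of 32851 windows of this length (0.0183%), the direct repeat in 111 (0.338%) and TATAA in 7485 (22.8%). The half-site was written as AGGTNA for the inverted repeat but as AGGNCA for the direct repeat. The Fabp6 match does not hold with AGGNCA, so its share depends on the letters chosen. That share is therefore not read as the rarity of the Fabp6 site. The Fabp3 window holds none of the motifs. For comparison, the Fabp1 window, from a member below the median of every array, holds the direct repeat as TGACCTATGGCCT from 67 to 55 bases before its start. These matches are letters in a window, chosen for search with the known biology of these genes in view, and do not show that a factor binds there.

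Fabp3, the heart and muscle member, was by its brighter probe set the only one above the array median on every array. That probe set, 17419215, gave 9.32 in innate lymphoid cells, 8.89 in progenitors and 8.52 in mature mast cells. The largest difference was 0.79, between mature and innate lymphoid cells, which is 1.73-fold. Its dimmer probe set, 17430628, gave 6.60, 6.54 and 6.27 in that order. Both probe sets put innate lymphoid cells first, progenitors second and mature cells last, although the dimmer one spanned 0.33 in all. With 1 array a population, neighbours in that order cannot be separated. Fabp3 shares no value with another probe set on any array.

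Fabp4, the adipocyte member aP2, differed in size, but with all its levels below the array medians. Its only probe set, 17404091, gave 3.24 in innate lymphoid cells, 5.98 in mature mast cells and 6.10 in progenitors. Both mast cell levels were the high ones and yet lay below their array medians, so Fabp4 was not counted. The differences from innate lymphoid cells were 2.86 for progenitors and 2.74 for mature cells. A difference at least as large in the same direction was found for 24 genes, 3 of them olfactory or vomeronasal receptor genes, and for 80 genes, 18 of them such receptors. The mature-cell value is held by 121 other probe sets on that array.

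The remaining members were dim and nearly flat. Fabp1, the liver member, was at 4.33 on all 3 arrays. Fabp2, the intestinal member, was at 5.04 in progenitors and 4.35 in the other populations, a difference of 0.69. Fabp7, the brain member, was at 5.69 in both mast cell populations and 5.55 in innate lymphoid cells. In all, 3 of the 11 probe sets of the family, those of Fabp1 and the dim pair of Fabp5, had the same value on every array. Over the 23521 probe sets that name a single gene the share was 47.5%. Values repeated across genes as well. Of 14756 probe sets of the whole table that were equal on the 3 arrays, 81.0% also shared that value with another probe set. Equal values were found for 34.7% of probe sets with a mean level under 6, 40.1% of those from 6 to 8 and 5.18% of those at 8 or more. Exact repeats of this extent are unusual for the stated RMA processing, and any further step is not given in the sources used here, so that an equal value here cannot be read as a measured absence of change.

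**Figure D2:**
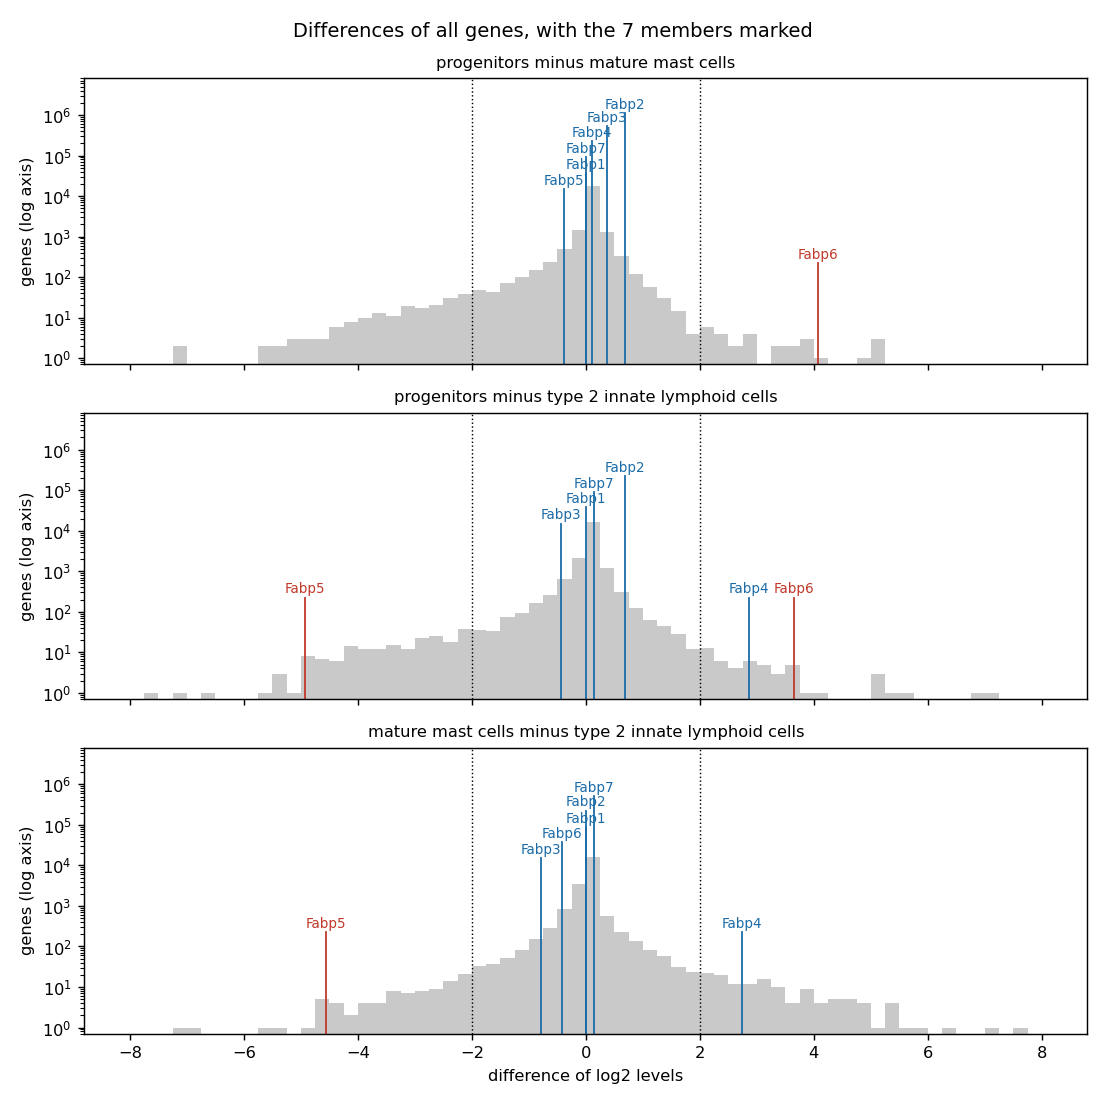
Number of genes (log axis) by difference of log2 levels in bins of 0.25, for the 3 pairs of arrays, with the 7 members drawn as vertical lines, red where counted and blue otherwise; dotted lines mark 4-fold. Fabp6 stands at 4.08 and 3.65 in the upper panels and Fabp5 at -4.93 and -4.56 in the lower panels, while Fabp4 passes the dotted line at 2.86 and 2.74 with all its levels below the array medians.

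Between progenitors and mature mast cells, the comparison that follows mast cell maturation, 1 of 7 members was counted higher in progenitors (Fabp6) against 0.113% of all genes, and 0 of 7 lower against 0.834%. Between progenitors and innate lymphoid cells 1 of 7 was counted higher (Fabp6) against 0.207% of all genes, and 1 of 7 lower (Fabp5) against 0.888%. Between mature mast cells and innate lymphoid cells 0 of 7 was counted higher against 0.573%, and 1 of 7 lower (Fabp5) against 0.401%. At 2-fold the same members were counted and no other, against 2.44%, 2.65% and 2.6% of all genes in the 3 comparisons. Since the family was chosen with these differences known, nothing is read from those shares. The comparisons share arrays and are not independent of each other. The median difference of the 7 members was 0.11, 0.14 and 0.00, against 0.00 for all genes each time.

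Few other genes of fatty acid handling were counted. Of 103 such genes measured, in 7 lists, 2 were counted with mature mast cells above progenitors, 1 with innate lymphoid cells above progenitors and 1 with innate lymphoid above mature cells. Over all genes the shares counted in those directions were 0.834%, 0.888% and 0.401%. No handling gene was counted in the opposite direction. In the same order of comparisons 67, 65 and 67 of the 103 were exactly equal, beside 12922, 12640 and 13452 of all 22180 genes. Of the 103, 4 exceeded a level of 8 on any array, so small differences would not be seen. The lists, like the members, were drawn up with earlier results known.

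None of the 7 other measured proteins of the same barrel-shaped family reached 2-fold, against 2.44%, 2.65% and 2.6% of all genes. Fabp9, a testis protein, was at 5.10 in progenitors and 4.73 in the other populations. Fabp12 was at 6.37 in innate lymphoid cells, 6.39 in mature cells and 6.71 in progenitors, and Pmp2, a fatty acid binding protein of myelin, at 6.01 on all 3 arrays. Fabp5, Pmp2, Fabp9, Fabp4 and Fabp12 lie side by side on chromosome 3 in the RefSeq order. Within that row of 5 genes, Fabp5 alone was high in innate lymphoid cells, by 2 of its 4 probe sets. Its probe set 17404073, numbered nearest to those of the other genes of the row, was flat at 4.52 on all 3 arrays. Fabp4 alone was lowest in innate lymphoid cells by over 4-fold, with its levels below the array medians.

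Uptake and receptor genes showed no counted difference. Of 13 genes of fatty acid uptake none reached 2-fold, with Cd36, a fatty acid translocase, at 4.67 on all 3 arrays and the lipoprotein lipase gene Lpl at 5.19 on all 3. Of 12 nuclear receptors and partners none reached 2-fold. Pparg, the receptor of adipocyte development, was at 5.76 on every array and Ppard, to which Fabp5 is known to deliver ligands, at 7.05 on every array. Of 20 genes of lipid droplets, lipolysis and triglyceride synthesis none reached 2-fold. Lipe, the hormone-sensitive lipase that binds Fabp4 in fat cells, was at 6.57 throughout. Dgat1, which makes triglycerides, was at 6.72 in innate lymphoid cells, 6.02 in mature cells and 5.86 in progenitors. Over all genes 2.44%, 2.65% and 2.6% were counted at 2-fold in the 3 comparisons. With lists of 13, 12 and 20 genes, a count of none cannot be told from these shares. In the same order of comparisons, 12, 11 and 11 of the uptake genes were exactly equal. Among the receptors and partners it was 9, 9 and 10, and among the lipid droplet list 11, 12 and 14.

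Acss1, the mitochondrial enzyme that turns acetate into acetyl-CoA, was the only gene of 13 for fatty acid activation to reach 2-fold. With 13 genes, a count of 1 cannot be told from the 2-fold shares of all genes, 2.65% for progenitors and 2.6% for mature cells against innate lymphoid cells. In these comparisons 8 and 6 of the 13 were exactly equal. Acss1 was at 6.51 in both mast cell populations and 10.47 in innate lymphoid cells, a difference of 3.96, by its brighter probe set, 17548176. Its dimmer probe set, 17392690, was at 6.47 on all 3 arrays. As with Fabp5, a bright probe set high in innate lymphoid cells stood beside a flat dim one. The bright Acss1 probe set is numbered near the bright Fabp5 sets, 17548238 and 17548717. Whether the 2 genes are independent cases in this respect was not tested.

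In fatty acid oxidation and synthesis, the counted genes were lower in progenitors. Etfb, the electron transfer flavoprotein subunit that accepts electrons from fatty acid oxidation, was at 8.47 in mature mast cells, 7.65 in innate lymphoid cells and 6.38 in progenitors, and was the only one of 20 oxidation genes to reach 2-fold. Tecr, the last enzyme of very long chain fatty acid elongation, was at 10.48, 10.10 and 8.40 in the same order, and was the only one of 18 synthesis genes to do so. The largest differences of Etfb and Tecr, 2.09 and 2.07, lay just past 4-fold. Over all genes, 185 (0.834%) were counted lower in progenitors than in mature cells and 25 (0.113%) higher. With lists of 20 and 18 genes, a count of 1 cannot be told from these shares. Cpt1a, which controls the entry of fatty acids into mitochondria, was at 6.71 on every array, and Fasn, the fatty acid synthase gene, at 6.74 on every array.

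**Figure D3:**
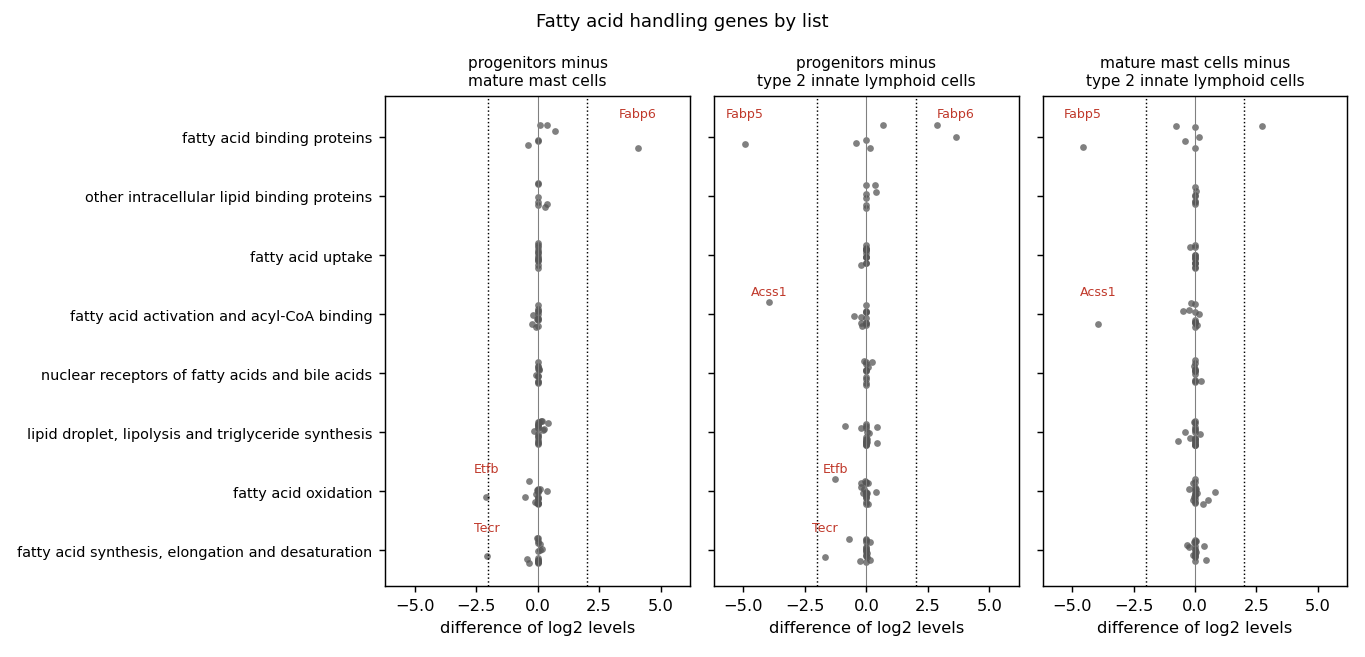
Differences of log2 levels (horizontal axis) for the fatty acid binding proteins and 7 lists of fatty acid handling genes, 1 point a gene, in the 3 pairs of arrays; dotted lines mark 4-fold, vertical spread within a list has no meaning, and genes of at least 2-fold with the brighter array above its median are named. Fabp6, Fabp5, Acss1, Etfb and Tecr are the named genes, and nearly all others lie at or near 0.

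The sorted populations carried many markers of their labels, with exceptions among both mast cell and innate lymphoid markers. Of 12 mast cell markers, 9 were counted higher in mature cells and 4 in progenitors than in innate lymphoid cells, against 0.573% and 0.207% of all genes. Of the same 12, 9 were above the progenitor array's median. Cpa3, the mast cell carboxypeptidase, was at 5.28 in innate lymphoid cells, 12.83 in mature cells and 12.30 in progenitors. In the same order Kit was at 6.63, 10.29 and 6.88 and Fcer1a at 5.05, 8.87 and 5.37. The transcripts of these sort markers were thus much lower in progenitors than in mature cells, Kit above the progenitor array's median and Fcer1a below it. Of 14 innate lymphoid markers, 6 were counted lower in progenitors and 5 in mature cells than in innate lymphoid cells, against 0.888% and 0.401% of all genes. Among the others Rora was at 6.64 and Thy1 at 6.68 on all 3 arrays, Gata3 at 6.82 in innate lymphoid cells and 6.76 in both mast cell populations, and Il13 at 7.41 in innate lymphoid and mature cells and 7.65 in progenitors. Il2ra, the gene of the sort marker CD25, was at 7.25 in innate lymphoid cells and 6.58 in both mast cell populations. Markers of other cells, some of which use fatty acid binding proteins, stayed within 2-fold. None of the 94 measured genes in 9 lists of other cell types reached 2-fold in any pair, and 2 (Ighm and Lat) exceeded a level of 8. Over all genes 2.44%, 2.65% and 2.6% were counted at 2-fold in the 3 comparisons, and 1141 of 22180 exceeded 8 on any array. Low counts among 94 genes thus lie near the shares of all genes. The 14 macrophage markers had medians of 6.40 in innate lymphoid cells, 6.38 in mature cells and 6.47 in progenitors. Of these markers 8 of 14 were above the array median on each array. The 7 adipocyte markers had medians of 5.98, 5.98 and 6.04, with 2 of 7 above it on each, and Adipoq, which encodes adiponectin, was at 6.05 throughout. The 10 endothelial markers had medians of 6.50, 6.49 and 6.53.

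**Figure D4:**
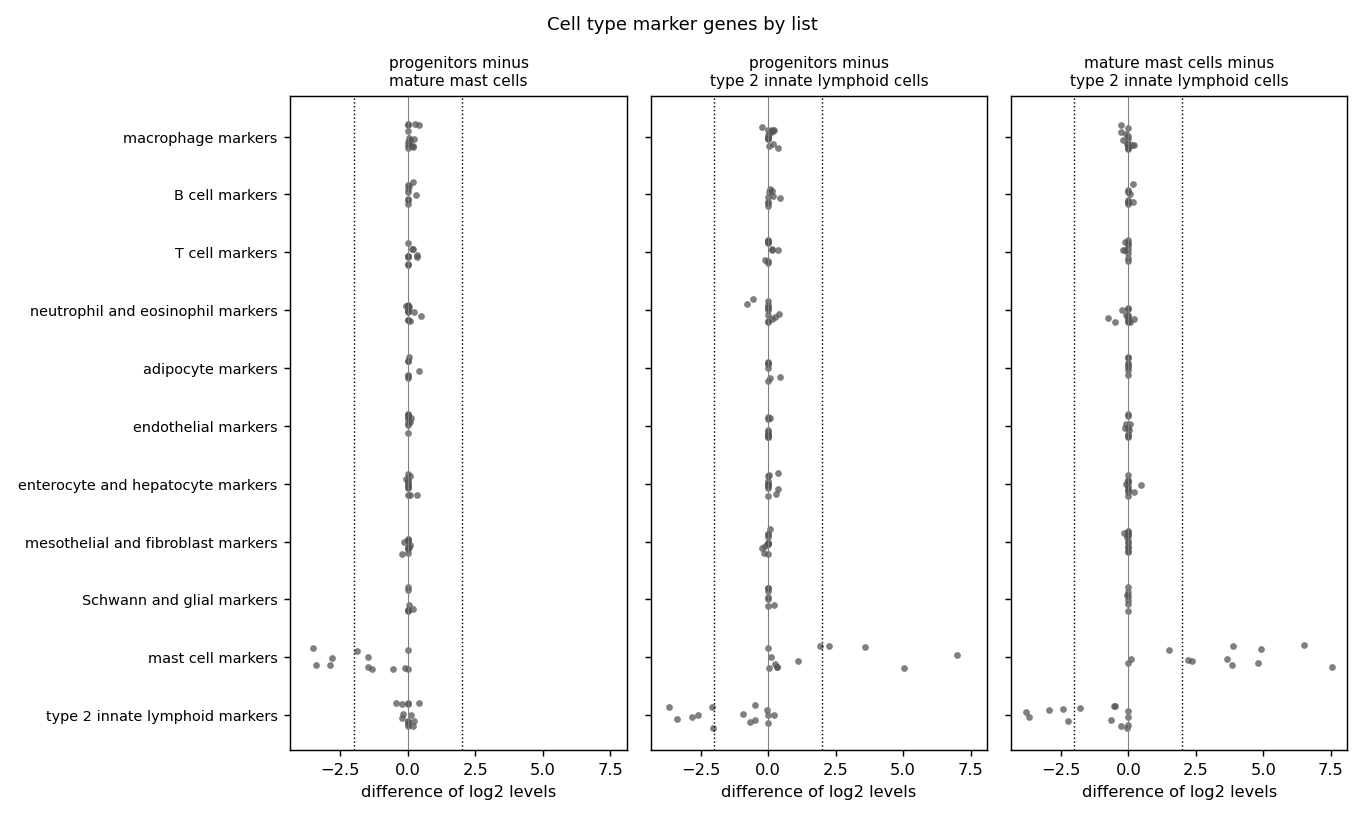
Differences of log2 levels (horizontal axis) for the marker genes of 11 cell types or groups of them, 1 point a gene, in the 3 pairs of arrays; dotted lines mark 4-fold and vertical spread within a list has no meaning. Points beyond 4-fold are found in the mast cell and innate lymphoid lists, while the 94 genes of the other 9 lists stay within 2-fold.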

How the data were processed

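Levels were measured on 3 whole-transcript arrays, 1 for each population. The deposited values are log2 levels of 41345 probe sets, which the authors computed by RMA (per the submitters' processing notes, where no program is named). As a method RMA removes background, brings arrays to a common distribution and combines the probes of each set. That the scale is log2 follows from the range of 2.23 to 13.7. Detection flags, probe signals and a genome build were not given in the sources used here, and dim levels are set by background, which shrinks differences.

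The platform's gene table named 1 gene for 23521 probe sets, several for 1814 and none for 16010. All 11 member probe sets matched RefSeq symbols of GRCm38.p6 by Entrez identifier, and no probe set named a member among several genes. The brightest probe set by mean over the arrays stood for a gene. Differences, counts and pattern distances were computed with Python 3.11.15, numpy 2.4.6 and pandas 2.3.3. The counting code was run on simulated data with large planted changes, little noise and none of the repeated values of the real table. That run checks the code and not the counts given here. Named were all members, list genes that reach 2-fold and up to 3 others a list where none does, and the 3 nearest patterns (without receptor, provisional and small RNA genes) of Fabp5 and Fabp6, while those of Fabp4 are not given because all its levels lie below the array medians. A few further genes (Dgat1, Lipe, Lpl, Cpt1a and Fasn among them) were chosen with their values known, as were the promoter motifs. Counts of genes as different as Fabp5 and Fabp6 were also made with levels under the array median raised to it, a setting added after seeing the data. The members and lists were chosen with earlier results of these data known. Some of the genes listed were not analysed here. Alternatives were the floor, the array scaling, the choice of probe set, the fold and probe sets of several genes. Precision is limited by the single array of each population.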

Additional observations from a re-analysis of the deposited data

How the results depend on the processing

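With 1 array a population no array could be left out, and no level has an error. No paired analysis was possible because each group has 1 array and no test was made. No difference of a counted member reversed under the 8 alternatives. Fabp6 has 1 probe set, so the choice of probe set could not change it. Under the higher floor and both scalings Fabp6 was still counted in both of its comparisons. The shift to a common median left its differences at 4.06 and 3.64. With differences of this size and a level of 9.75, neither that shift nor the higher floor was a strict check. With the probe set of lowest mean for each gene, the members counted went to 1 between progenitors and innate lymphoid cells and 0 between mature and innate lymphoid cells, since Fabp5 is then at 4.45 on each array, and the fatty acid handling genes counted went to 0 in both, since Acss1 is then flat. With the mean of a gene's probe sets, Fabp5 was still counted, by 2.50 from progenitors and 2.32 from mature cells, and the fatty acid handling genes were again 0 in both. Without the floor, 2 members were counted between mature and innate lymphoid cells and 3 between progenitors and innate lymphoid cells, because Fabp4 entered. With quantile normalization 1 fatty acid handling gene was counted between progenitors and mature cells in place of 2, because Tecr was no longer counted. At 2-fold, 541, 587 and 577 genes were counted over the whole table in place of 210, 243 and 216, and 3 fatty acid handling genes between progenitors and innate lymphoid cells. The other counts stayed within 1.5 times.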

Other observations

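The genes next to Fabp6 on chromosome 11 in the RefSeq order did not share its high progenitor level. Ccnjl and C1qtnf2, on one side, were at 5.82 and 6.06 in innate lymphoid cells, 5.78 and 6.05 in mature mast cells, and 5.78 and 6.25 in progenitors. On the other side Pwwp2a was at 6.42 on all 3 arrays and Ttc1 at 6.67 in progenitors and 7.19 in the others. Next to Fabp5 on chromosome 3, on the side away from the rest of the family, Pag1, an adaptor gene, was at 6.01 and Zfp704 at 5.75 on all 3 arrays. The value of Pag1 is also that of Pmp2.

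Repeated values were a feature of the whole table. The 41345 probe sets held 22521 distinct values in innate lymphoid cells, 22166 in mature mast cells and 22929 in progenitors, and between 52.2% and 54.2% of probe sets shared their value with another on the same array. RefSeq lists pseudogenes named Fabp3-ps1 and Fabp5l2, neither of which is named in the platform's table. Whether the probes of Fabp3 or Fabp5 also detect them was not tested.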
